A study of Mus musculus with 16 samples.

Results

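Neural stem and progenitor cells that lack Kat6b were compared with wild-type cells on the C57BL/6 background by ATAC-seq, an assay that tags open DNA with a transposase. The comparison rests on 8 of the 16 libraries of the series: 4 from Kat6b-/- knockout embryos (KO) and 4 from Kat6b+/+ wild-type embryos (WT), chosen by genotype and strain and restricted to autosomal regions. The remaining libraries come from Tg(Kat6b) transgenic embryos and their wild-type controls on a FVBxBALB/c hybrid background, each with 4 libraries. For all groups the cells were taken from the dorsal telencephalon at E12.5 and cultured in neurosphere medium, and 50000 of them were mixed with an added 50000 S2 cells of Drosophila melanogaster. The Tg(Kat6b) mice overexpress Kat6b. The sources used here do not say which exons the KO allele lacks, and the cells had been through culture, so the profiles are those of cultured progenitors and not of intact tissue. Every library is a separate embryo per the series' design text, and no sex, litter or preparation date is given.

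Kat6b encodes an enzyme of the MYST family that acetylates histone H3, together with its partners, the BRPF scaffold proteins, ING5 and MEAF6. Acetylated histones at promoters and enhancers accompany open chromatin and active transcription. In mice Kat6b is needed for normal growth of the cerebral cortex and for neural stem cell self-renewal, and in humans its mutation causes intellectual disability syndromes. The open sites counted here fall in promoter windows of 2001 bp, in enhancer regions named for the histone marks H3K4me1 and H3K27ac, and in windows of 1001 bp downstream of gene ends. Counts of a window are given as CPM, the usual unit that scales the counts of a class to a fixed library total. In a bulk library, a site open in more of the cells and a site cut more often in each cell cannot be told apart.

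Autosomal promoter counts per library were 2539148 to 3536337 in KO and 2076985 to 2664347 in WT. Enhancer regions held 1524705 to 2142253 in KO and 1290289 to 1652213 in WT, and gene ends 268190 to 375934 in KO and 233795 to 318656 in WT. The median tested promoter had 78 to 131 counts in a library, the median enhancer region 43 to 70 and the median gene end 9 to 14, so that gene ends resolve only large changes. The first principal component placed the 4 KO libraries on one side and the 4 WT libraries on the other in each class, with 61.9% of the variance over 8814 enhancer regions, 29.7% over 12209 promoters and 31.4% over 2041 gene ends. On the second component of gene ends (15.6%), WT library 2 lay at -11.7, while the other WT libraries lay between 0.12 and 4.89. The KO libraries held a smaller share of promoter counts on chromosome X than the WT libraries (2.72% to 2.84% against 2.99% to 3.23%), and of gene-end counts (3.45% to 4.08% against 4.94% to 5.75%). The 4 largest enhancer regions took 9.90% to 11.5% of KO and 12.1% to 13.0% of WT enhancer counts. Regions on X enter the tests only as an alternative, and the part of the 4 largest regions in the results was not tested. The progenitor label was examined at the promoters of progenitor genes. Those of Vim, Sox2, Fabp7 and Hes5 ranked between percentiles 87.0 and 98.7 of all tested promoters, those of Emx2 and Nes at percentiles 85.2 and 80.0, and those of Lhx2, Emx1 and Pax6 at percentiles 46.9, 43.5 and 36.5.

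Kat6b and chromosome 14, on which it lies, were examined first. The enhancer region described here was picked as the one of this chromosome with 0 KO counts and the highest WT level. Its emptiness in KO was thus the rule of choice and is no check of the genotype. An enhancer region of 5015 bp that starts at 22366417 on chromosome 14 (mm9, as named by the authors) had 0 counts in each of the 4 KO libraries, against 109, 90, 81 and 122 counts in WT libraries 1 to 4. Its level in WT was 69.2 ± 4.76 CPM (SD, n = 4), and KO lay at least 41.8-fold lower when each KO library is set to a floor of 3 counts. The same region held 5264 counts in the 4 Tg(Kat6b) libraries and 471 in their wild-type controls. Whether this stretch is missing from the KO DNA was not tested, and the deposited tables do not tie the region to a gene.

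The regions on either side had counts in all KO libraries. The nearest regions, at 22321389 and 22572314, had 93.1 ± 8.60 and 7.90 ± 2.03 CPM in KO, against 102 ± 12.7 and 11.1 ± 0.8287 CPM in WT, and neither was called (edgeR adjusted p = 0.334 and 0.275). The region at 22308414 had 51.2, 52.5, 49.1 and 42.9 CPM in KO libraries 1 to 4, against 64.1, 60.6, 65.7 and 51.1 CPM in WT. The groups overlapped there through WT library 4, and the change just missed the threshold of 0.05 (log2 change -0.29, SE 0.12, edgeR adjusted p = 0.0546). The Kat6b promoter itself remained among the most open promoters, with 306, 311, 307 and 305 CPM in KO libraries 1 to 4, against 270, 313, 284 and 258 CPM in WT. These ranges overlapped through WT library 2 (log2 change 0.13, SE 0.05, edgeR adjusted p = 0.171). The window downstream of the Kat6b end was not called either (35.3 ± 2.65 CPM in KO and 43.3 ± 7.41 CPM in WT, edgeR adjusted p = 0.880), nor were the neighbouring promoters of Plau, Vcl, Ap3m1, Adk, Dupd1, Dusp13, Samd8 and Vdac2.

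**Figure D1:**
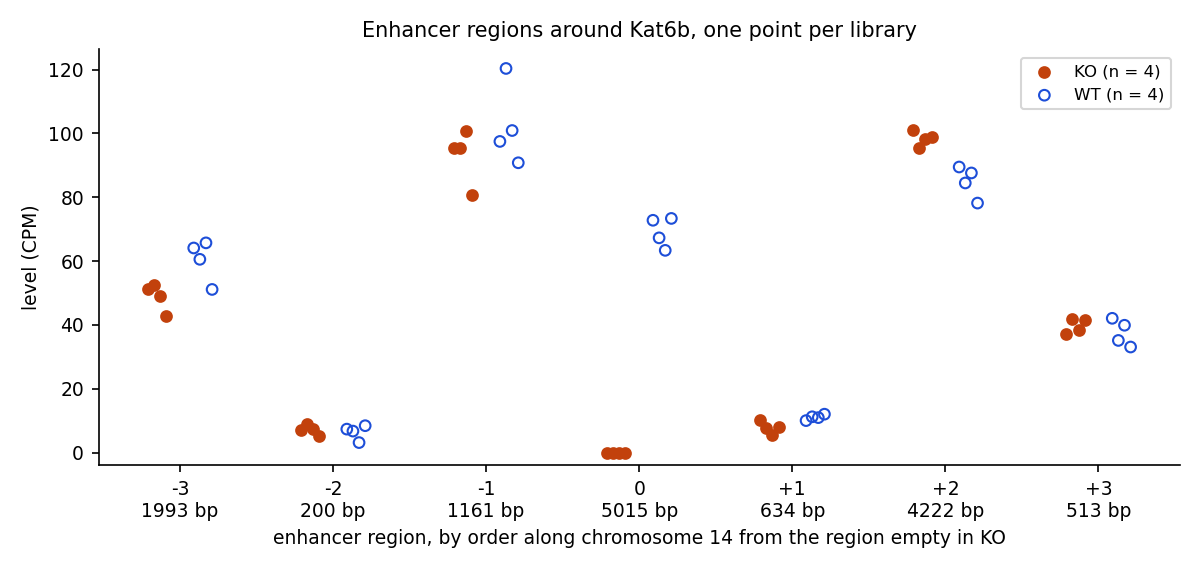
Levels in CPM (vertical axis) of 7 enhancer regions in their order along chromosome 14 from the region with no KO counts (0). Each has 1 filled point per KO library left of 1 open point per WT library. Their placement around Kat6b, as in the title, was not tested. The region at 0 is empty in all 4 KO libraries and lies between 63.4 and 73.4 CPM in WT, while KO and WT points overlap at 5 of the other regions and KO lies above WT at +2.

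A search for further windows with 0 counts in all KO libraries and at least 20 in WT, made after the values were seen, found the promoter of Oog3 and the gene end of Fv1, both on chromosome 4. The Oog3 promoter, of an oocyte-expressed gene with close paralogs that can share reads, had 0 counts in KO, against 6, 6, 11 and 9 in WT libraries 1 to 4. Set to that floor, KO lay at least 3.41-fold lower. The window at the end of Fv1, a restriction factor against murine leukaemia virus that derives from an endogenous retrovirus, had 0 counts in KO, against 9, 4, 1 and 7 in WT, at least 2.01-fold lower, a call lost after thinning to 1 depth. Both windows held counts in the other groups, 71 and 77 over the Tg(Kat6b) libraries and 81 and 64 over their controls. No window of any class was empty in all WT libraries with at least 20 counts in KO.

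Promoter changes in KO were few and mostly small. Of 19199 autosomal promoters tested, 625 passed, which is 3.26%. They comprised 365 higher promoters (1.9%) and 260 lower ones (1.35%). Their median absolute log2 change was 0.35. Changes of at least 2-fold were at 3 higher and 22 lower promoters. KO and WT values did not overlap at 9.66% of all tested promoters and at 511 of those called. The split between directions depended on scaling and on the filter. Library totals gave 257 higher and 361 lower, offsets that follow abundance gave 230 and 328, and the scaling factors of gene ends gave 150 and 54. A filter at a mean count of 50 gave 259 and 354. An unadjusted edgeR p under 0.05 was found at 16.8% of all tested promoters. DESeq2 called 203 higher and 94 lower, thinning all libraries to 1 depth left 94 and 81, and without KO library 1 there were 242 and 151. Among called promoters, 43 lay next to a promoter whose counts over the 8 libraries differed by under 2%, as head-to-head genes with overlapping windows do, and such pairs can hold the same reads.

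The promoter with the highest gain was that of F2rl2, which encodes the thrombin-responsive receptor PAR3. It had 27.7, 36.6, 41.5 and 39.1 CPM in KO libraries 1 to 4, against 12.3, 12.03, 19.0 and 12.1 CPM in WT. Every KO value lay above every WT value, although WT library 3 stood above its group (log2 change 1.39, SE 0.14, edgeR adjusted p = 3.9e-15). Tenm4 encodes a teneurin, a transmembrane protein of neuronal wiring and myelination. Its promoter had 30.2, 30.7, 30.7 and 31.6 CPM in KO, against 15.1, 18.7, 15.2 and 18.3 CPM in WT (log2 change 0.87, SE 0.14, edgeR adjusted p = 1.5e-06). The KO libraries were nearly equal to each other and did not overlap WT. BC107364 had 37.4, 42.7, 37.1 and 34.3 CPM in KO, against 22.3, 16.04, 22.8 and 21.6 CPM in WT, without overlap (log2 change 0.86, SE 0.13, edgeR adjusted p = 6.3e-08). The acyltransferase-like gene Oacyl (log2 change 0.98) ranked between F2rl2 and Tenm4, and the endocytic adaptor gene Ston2 (0.81) and the axonal transport adaptor gene Fez1 (0.76) came after BC107364. Further rises were at Dnajc5b (0.67), Cmtm5 (0.65), the ganglioside synthesis gene B3galt4 (0.65), the BMP antagonist gene Vwc2 (0.64), the vesicle GTPase gene Rab26 (0.63), the sodium channel gene Scn7a (0.61), Sapcd1 (0.73), Lrrc3b (0.63) and Gpr179 (0.62).

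The promoter with the deepest fall under the same rule was that of Sucnr1, the receptor gene for extracellular succinate. It had 20.8, 23.9, 19.1 and 19.2 CPM in KO libraries 1 to 4, against 47.3, 43.7, 41.9 and 42.4 CPM in WT. The highest KO value lay far under the lowest WT value (log2 change -1.08, SE 0.12, edgeR adjusted p = 6.6e-13). Kcna5 and Kcna6 encode voltage-gated potassium channels and lie near each other on chromosome 6, though not shown to be adjacent. The Kcna5 promoter had 13.7, 13.0, 16.8 and 18.9 CPM in KO, against 33.4, 25.8, 30.4 and 32.2 CPM in WT (log2 change -0.97, SE 0.14, edgeR adjusted p = 7.0e-08). The Kcna6 promoter had 31.9, 33.1, 27.5 and 31.0 CPM in KO, against 53.7, 54.4, 56.6 and 40.9 CPM in WT (log2 change -0.71, SE 0.11, edgeR adjusted p = 7.0e-08). Neither pair of groups overlapped. Gabra5, the gene of the GABA-A receptor alpha5 subunit, had 22.5, 18.4, 17.5 and 21.6 CPM in KO, against 40.9, 34.8, 37.1 and 34.4 CPM in WT, again without overlap (log2 change -0.86, SE 0.13, edgeR adjusted p = 7.0e-08). The stathmin gene Stmn4, which acts on microtubules in neurons, fell by 0.94 on the log2 scale. Further falls were at the metabotropic glutamate receptor gene Grm7 (-0.63), the cold-sensing channel gene Trpm8 (-0.62), Car10 (-0.70), the potassium channel auxiliary gene Lrrc38 (-0.69), the tight junction gene Ocln (-0.64), the cholesterol acyltransferase gene Lcat (-0.81), the carnitine synthesis gene Bbox1 (-0.73), Akr1e1 (-0.68), Mtmr11 (-0.66) and Garnl3 (-0.63). Of these 30 promoters, 24 were called under every alternative run. Akr1e1, Bbox1, Cmtm5, Rab26, Scn7a and Trpm8 lost the call after thinning to 1 depth, and Trpm8 also without WT library 1 (edgeR adjusted p = 0.0636).

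**Figure D2:**
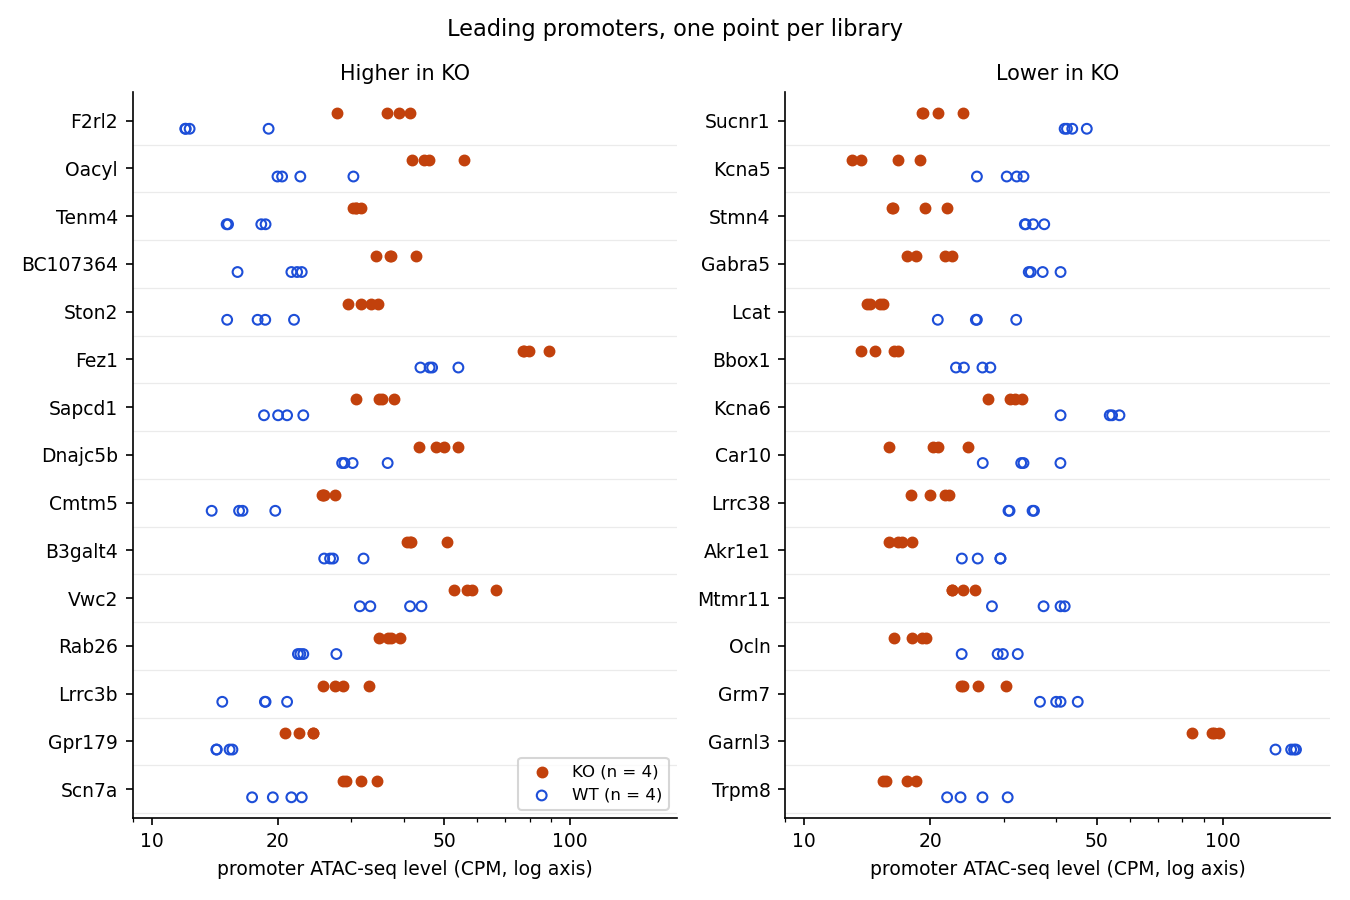
Promoter level in CPM on a log axis for the 15 highest-ranked rises (left) and the 15 highest-ranked falls (right), with 1 filled point per KO library drawn above 1 open point per WT library. KO and WT points do not overlap for any of the 30 promoters, which the rule for naming them required. F2rl2 at the top left has the highest log2 change among the rises (1.39) and Sucnr1 at the top right the lowest among the falls (-1.08).

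The promoter sequences of 3 rises and 3 falls are shown because the results turn on these promoters and their CG content differs. Oacyl among the rises and Stmn4 among the falls rank with them and are not shown. Sequences are from RefSeq on GRCm38.p6, run 5′ to 3′ on the strand of the gene from 250 bases before to 50 after its start, and capitals mark each CG. The deposited tables give no window coordinates, so the annotated start may lie apart from the centre of the counted window. F2rl2 is at chr13:95696670-95696969 (plus strand), Tenm4 at chr7:96170994-96171293 (plus), BC107364 at chr3:96452257-96452556 (minus), Sucnr1 at chr3:60081619-60081918 (plus), Kcna5 at chr6:126535506-126535805 (minus) and Gabra5 at chr7:57510010-57510309 (minus).
F2rl2: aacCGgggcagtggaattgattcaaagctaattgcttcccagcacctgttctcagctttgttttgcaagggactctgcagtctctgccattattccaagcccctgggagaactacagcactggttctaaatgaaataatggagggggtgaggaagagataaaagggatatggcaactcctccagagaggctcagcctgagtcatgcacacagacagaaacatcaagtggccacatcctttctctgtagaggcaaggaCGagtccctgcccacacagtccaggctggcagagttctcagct
Tenm4: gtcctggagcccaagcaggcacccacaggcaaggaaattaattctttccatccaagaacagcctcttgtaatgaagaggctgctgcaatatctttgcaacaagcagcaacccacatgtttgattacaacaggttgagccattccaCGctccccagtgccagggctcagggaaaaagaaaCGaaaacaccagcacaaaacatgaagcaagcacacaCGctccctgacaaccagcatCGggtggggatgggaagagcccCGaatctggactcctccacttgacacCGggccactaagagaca
BC107364: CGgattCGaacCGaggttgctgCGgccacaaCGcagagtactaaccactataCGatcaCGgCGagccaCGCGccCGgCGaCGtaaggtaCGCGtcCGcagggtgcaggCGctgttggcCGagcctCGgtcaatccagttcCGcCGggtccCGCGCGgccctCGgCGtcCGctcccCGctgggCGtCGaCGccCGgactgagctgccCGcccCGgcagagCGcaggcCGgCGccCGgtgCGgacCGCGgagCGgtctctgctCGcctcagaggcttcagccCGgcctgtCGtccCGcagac
Sucnr1: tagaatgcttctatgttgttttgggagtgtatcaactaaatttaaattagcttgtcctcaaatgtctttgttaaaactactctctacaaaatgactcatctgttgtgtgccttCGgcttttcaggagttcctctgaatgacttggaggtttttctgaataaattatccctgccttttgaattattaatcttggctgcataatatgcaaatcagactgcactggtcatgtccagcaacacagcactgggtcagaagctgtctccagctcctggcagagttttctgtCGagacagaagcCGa
Kcna5: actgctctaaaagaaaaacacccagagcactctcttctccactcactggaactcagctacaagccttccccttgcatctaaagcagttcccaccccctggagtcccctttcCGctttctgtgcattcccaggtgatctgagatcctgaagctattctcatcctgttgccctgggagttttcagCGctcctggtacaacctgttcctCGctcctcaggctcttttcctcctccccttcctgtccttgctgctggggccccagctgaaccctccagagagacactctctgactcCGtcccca
Gabra5: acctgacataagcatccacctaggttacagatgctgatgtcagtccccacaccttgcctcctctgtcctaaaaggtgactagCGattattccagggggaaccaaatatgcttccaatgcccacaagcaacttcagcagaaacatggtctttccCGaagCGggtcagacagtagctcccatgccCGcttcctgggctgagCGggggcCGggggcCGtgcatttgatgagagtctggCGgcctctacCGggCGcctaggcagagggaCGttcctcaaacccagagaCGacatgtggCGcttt
The letters CG, which read the same on both strands, occur 2 times in the F2rl2 window and 6 times in that of Tenm4. At least as many are found in 89.3% and 71.2% of all promoter windows of this length in the table. The BC107364 window has 46, a number that 2.19% of windows reach. Sucnr1 has 3, Kcna5 4 and Gabra5 13, numbers reached by 83.4%, 78.4% and 55.7% of windows. A comparison of CG content over all called promoters was computed and is void, because fewer than 80% of the tested promoters (79.5%), of the rises (79.2%) and of the falls (77.7%) had a sequence in the table. These 6 windows therefore stand for no more than themselves.

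Direction followed how open a promoter was. Among the 4800 least open promoters, 0 were called higher by edgeR and 39 lower, and the median log2 change of all promoters in this quartile was -0.21. The next quartile had 50 higher and 86 lower calls (median -0.04), the third had 112 and 87 (median 0.03), and the 4800 most open promoters had 203 and 48 (median 0.05). Changes among the calls were smaller where promoters were more open, with a median absolute log2 change of 1.02 in the lowest quartile and 0.26 in the highest. Enhancer regions had the same order, from 31 higher and 86 lower calls in the lowest quartile to 1126 and 441 in the highest. Depth moves with this pattern as well: the median promoter of the lowest quartile held 16.5 counts per library and that of the highest 307, and its part in the order was not tested. Offsets that follow abundance take out such a trend by construction and gave the split stated above. The lowest running medians over 25 neighbouring promoters, down to -0.52, lay in olfactory receptor clusters on chromosome 2, and none of the promoters in the 3 lowest of these windows was called.

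**Figure D3:**
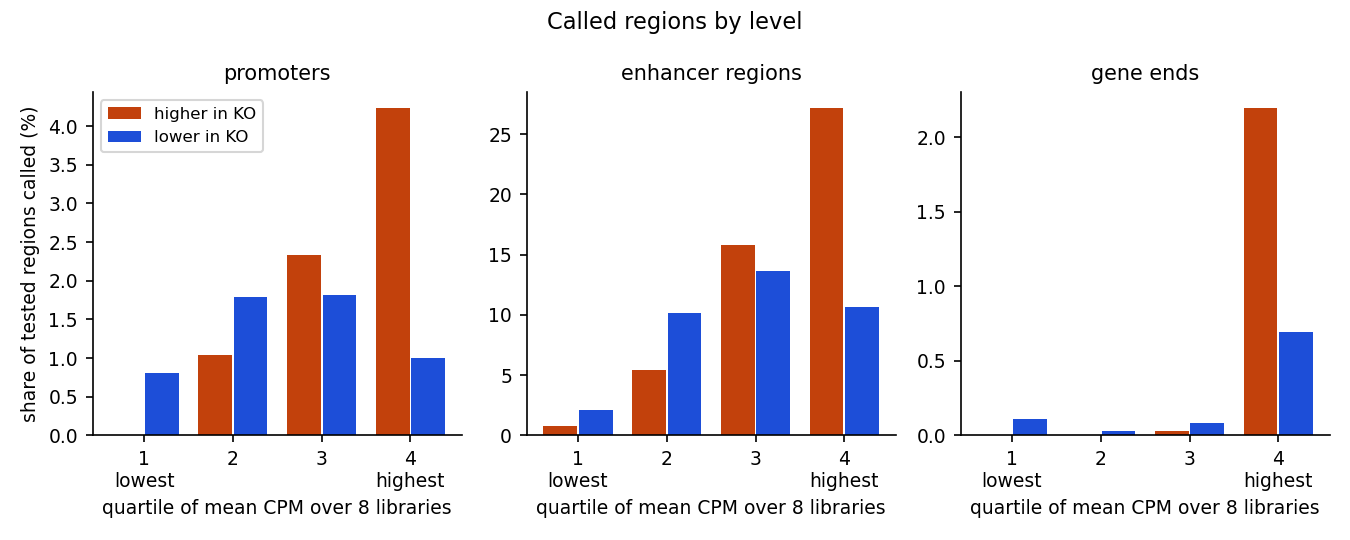
Share of tested regions called by edgeR (vertical axis, percent, with a scale of its own for each class) in quartiles of mean CPM over the 8 libraries, with rises in KO left of falls. Rises outnumber falls in the highest quartile of each class, for example 203 against 48 at promoters, and falls outnumber rises in the lowest, 39 against 0.

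BMP signalling acts through receptors and SMAD proteins and switches on the Id genes, which encode inhibitors of basic helix-loop-helix factors and hold progenitors undifferentiated. Of the 26 promoters in a list of BMP pathway and Id genes, 2 were called higher and 5 lower, against 1.9% and 1.35% of all promoters, and the median log2 change was -0.02 against -0.01 over all promoters. Id1 had 88.4, 98.0, 81.0 and 80.9 CPM in KO libraries 1 to 4, against 119, 120, 137 and 124 CPM in WT, without overlap (log2 change -0.52, SE 0.07, edgeR adjusted p = 9.4e-09). Id3 had 71.9, 73.1, 72.6 and 75.8 CPM in KO, against 96.6, 105, 95.1 and 104 CPM in WT, again without overlap (log2 change -0.45, SE 0.08, edgeR adjusted p = 3.5e-06). Id2 had 135, 119, 137 and 113 CPM in KO, against 161, 155, 154 and 133 CPM in WT (log2 change -0.26, SE 0.06, edgeR adjusted p = 0.00710). WT library 4 overlapped KO there, and the Id2 call was lost without WT library 1 or KO library 4, with edgeR adjusted p up to 0.0920. The Id2 gene end fell as well, to 119 ± 26.4 CPM in KO, against 208 ± 29.8 CPM in WT (log2 change -0.77, edgeR adjusted p = 0.00293). Smad6, an inhibitory SMAD induced by BMP, had 79.9, 78.9, 92.1 and 83.9 CPM in KO, against 98.96, 110, 100 and 105 CPM in WT, without overlap (log2 change -0.31, SE 0.07, edgeR adjusted p = 0.00286). The fourth Id gene, Id4, was not called (log2 change -0.10, edgeR adjusted p = 0.466), and Grem1, a secreted BMP antagonist gene, fell (-0.35), a call lost when any of 7 libraries was left out (edgeR adjusted p up to 0.105).

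Among the same genes the ligand Bmp7 and the receptor Bmpr1b moved the other way. Bmp7 had 86.4, 85.4, 74.2 and 79.4 CPM in KO libraries 1 to 4, against 63.2, 68.6, 64.2 and 55.2 CPM in WT, without overlap (log2 change 0.39, SE 0.08, edgeR adjusted p = 8.1e-04). Bmpr1b averaged 86.6 ± 6.08 CPM in KO and 68.9 ± 10.95 CPM in WT (log2 change 0.35, SE 0.08, edgeR adjusted p = 0.00294), and without WT library 4 its change was 0.25 and was not called (edgeR adjusted p = 0.108). Other receptors and SMAD genes, such as Bmpr1a (0.03) and Smad4 (0.02), were not called. With the scaling factors of gene ends the list had 2 higher calls and 1 lower, that of Id1, and its median was 0.05, against 0.07 over all promoters with those factors. DESeq2 called 2 higher and 4 lower. In Tg(Kat6b) against its own controls, which share no library with this comparison, the log2 changes were 0.37 at Id1, 0.59 at Id3, 0.57 at Id2 and 0.59 at Smad6, where 27.4% of promoters were called higher. The difference between the KO and the Tg effect was -0.89 (SE 0.11) at Id1, -1.04 (SE 0.11) at Id3, -0.82 (SE 0.10) at Id2 and -0.90 (SE 0.11) at Smad6 (edgeR adjusted p = 5.1e-12, 3.7e-16, 1.4e-13 and 6.4e-12). These genes were picked by their fall in KO, and the difference holds the same KO values, so it is no separate test. In either direction 58.1% of promoters were called in Tg(Kat6b), and the share passing the difference was not counted. Tg values of Grem1, Bmp7 and Bmpr1b are not given here. The controls themselves differed at these promoters, with Id1 lower by 1.18 and Id3 by 0.71 on the log2 scale in WT FVBxBALB/c than in WT C57BL/6.

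**Figure D4:**
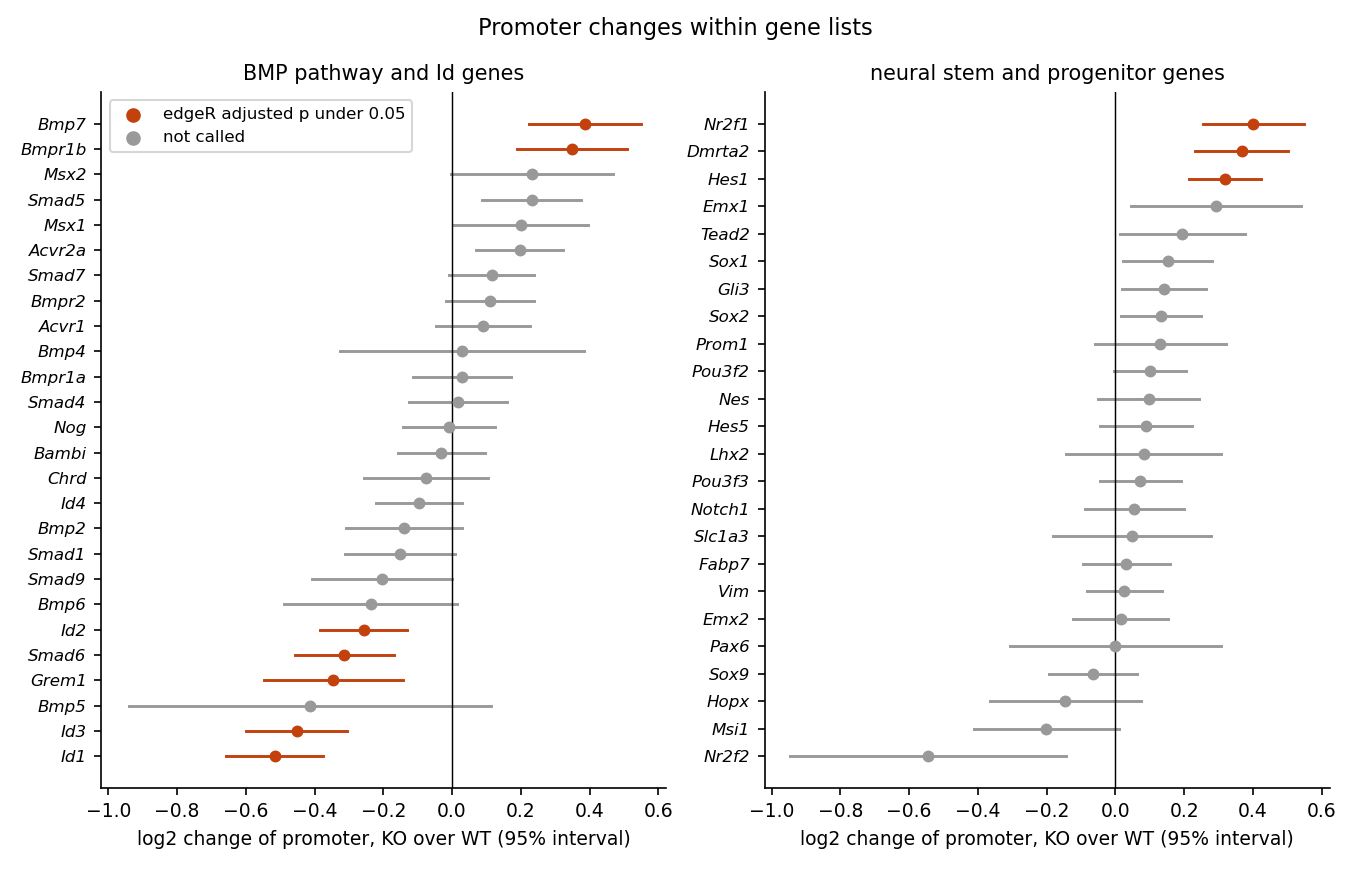
Log2 change of each promoter, KO over WT, with its 95% interval, for the 26 BMP pathway and Id genes and for 24 of the 25 neural stem and progenitor genes, coloured where edgeR called the change. Id1, Id3, Grem1, Smad6 and Id2 lie to the left of 0, and Bmp7, Bmpr1b, Nr2f1, Dmrta2 and Hes1 to the right.

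Promoters of progenitor genes that were called all rose. In a list of 25 neural stem and progenitor genes, 3 were higher and 0 lower, against 1.9% and 1.35% of all promoters, and DESeq2 and limma also called 3 higher and 0 lower. At an unadjusted edgeR p under 0.05 the list held 9, against 16.8% of all promoters. The median log2 change of the list was 0.09, against -0.01 over all promoters. Its median level percentile was 85.2. The most open quartile of all promoters had a median of 0.05, with 203 higher and 48 lower calls among 4800. With abundance offsets the list kept 3 higher calls and its median was 0.05. The part of the level in these rises was not tested. Hes1, an effector of Notch signalling that keeps progenitors cycling, had 277, 271, 293 and 269 CPM in KO libraries 1 to 4, against 222, 221, 209 and 234 CPM in WT (log2 change 0.32, SE 0.05, edgeR adjusted p = 4.8e-06). Nr2f1, a nuclear receptor that patterns the cortex, had 98.7, 106, 98.1 and 107 CPM in KO, against 79.5, 82.9, 71.4 and 76.8 CPM in WT (log2 change 0.40, SE 0.07, edgeR adjusted p = 5.9e-05). Dmrta2, needed for the dorsal telencephalon, averaged 138 ± 4.59 CPM in KO and 107 ± 4.87 CPM in WT (log2 change 0.37, edgeR adjusted p = 6.2e-05). None of these groups overlapped, and the calls held under every alternative. Sox2, the progenitor transcription factor gene, was not called (log2 change 0.13, 95% interval 0.02 to 0.25, edgeR adjusted p = 0.215). In the Notch list of 21 genes the ligand genes Dll1 (0.27) and Dll4 (-0.46) moved in opposite directions beside Hes1. Dll1 lost its call without KO library 2, WT library 1 or WT library 3, and Dll4 without KO library 4, WT library 3 or WT library 4, with edgeR adjusted p up to 0.151 for Dll1 and 0.153 for Dll4.

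Genes of neuronal differentiation, the cytoskeleton and patterning had scattered calls, where 1.9% of all promoters were called higher and 1.35% lower. Of 24 neurogenesis genes 1 was higher and 2 lower. The synaptic vesicle sensor gene Syt1 had 78.2, 78.9, 83.4 and 73.6 CPM in KO libraries 1 to 4, against 106, 112, 101 and 103 CPM in WT, without overlap (log2 change -0.43, edgeR adjusted p = 8.7e-06). Tubb3 (-0.38), a neuronal tubulin gene, and Dpysl3 (0.33) lost their calls without any of 5 and of 6 single libraries, and under DESeq2. Of 57 kinesin, tubulin and neurofilament genes 2 were higher and 3 lower. The axonal vesicle motor gene Kif1a had 71.3, 64.2, 76.2 and 62.8 CPM in KO, against 83.5, 96.7, 99.4 and 89.6 CPM in WT, without overlap (log2 change -0.43, edgeR adjusted p = 4.4e-05). Kif20a rose by 0.29 in a window that shares its reads with Brd8, a call lost without WT library 1 (edgeR adjusted p = 0.103). Kif21a (0.26) and Kif26a (-0.24) lost their calls when any of 5 and of 6 libraries was left out (edgeR adjusted p up to 0.211 and 0.252). Of 15 ventral telencephalon genes 2 were lower. Six3, a homeobox gene of the ventral forebrain, had 27.1, 25.96, 29.9 and 25.9 CPM in KO, against 35.8, 37.9, 41.9 and 40.2 CPM in WT, without overlap (log2 change -0.52, edgeR adjusted p = 0.00136). Dlx5 (-0.43, edgeR adjusted p = 0.0497) lost its call without any 1 of the 8 libraries.

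Of 36 axon guidance genes 3 were higher and 2 lower, against 1.9% and 1.35% of all promoters. The list median was 0.02, against -0.01 over all promoters. The secreted semaphorin gene Sema3c had 95.3, 95.6, 89.7 and 106 CPM in KO libraries 1 to 4, against 66.8, 73.1, 83.2 and 65.1 CPM in WT, without overlap (log2 change 0.44, edgeR adjusted p = 1.7e-05). The semaphorin receptor gene Plxna4 rose too (0.43, edgeR adjusted p = 4.8e-04). Slit3 (-0.51), Ephb2 (-0.29) and Epha5 (0.25) were called as well, and each lost its call when single libraries were left out (3, 8 and 3 of 8, with edgeR adjusted p up to 0.153, 0.162 and 0.0908). Of 91 potassium channel genes 0 were higher and 6 lower, against 1.9% and 1.35% of all promoters, with a median of -0.05. Beside Kcna5 and Kcna6 these were the tandem-pore channel gene Kcnk12 (-0.44), the ether-a-go-go channel genes Kcnh7 (-0.45) and Kcnh5 (-0.38), and the M-current gene Kcnq3 (-0.28). Kcnh7 lost its call when any of 6 libraries was left out and Kcnq3 when any of 4 was (edgeR adjusted p up to 0.155 and 0.0752). DESeq2 called 0 higher and 4 lower and limma 0 and 5, while scaling by gene ends left 2 lower with a median of 0.03, against 0.07 over all promoters. At an unadjusted edgeR p under 0.05 the list held 19 members, against 16.8% of all promoters. The median level percentile of the list was 43.7. In the second lowest quartile of level, all promoters had 50 higher and 86 lower calls and a median of -0.04.

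The calls among proliferation genes were rises, with 3 of 32 cell cycle and replication promoters higher and 0 lower by edgeR, against 1.9% and 1.35% of all promoters. Their median log2 change was 0.11, 7 had an unadjusted edgeR p under 0.05 (16.8% of all promoters did), DESeq2 called 1 and limma 3, all higher, and the factors of gene ends called 0. The median level percentile of the list was 79.6. In the most open quartile of all promoters the median was 0.05, with 203 higher and 48 lower calls among 4800. Abundance offsets left 1 higher call and a list median of 0.06, and the part of the level was not tested. Ccne2, a cyclin of entry into S phase, had 150, 139, 143 and 143 CPM in KO libraries 1 to 4, against 124, 118, 124 and 115 CPM in WT, without overlap (log2 change 0.26, edgeR adjusted p = 0.00595). Cdk1 (0.27) lost its call when any of 4 libraries was left out and E2f2 (0.33) without any of 6 (edgeR adjusted p up to 0.0987 and 0.154). The cell cycle inhibitor gene Cdkn1a was the single call among 15 inhibitor and stress genes (-0.43), lost when any of 7 libraries was left out (edgeR adjusted p up to 0.107).

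Chromatin regulators had single calls, where 3.26% of all promoters were called. The acetyltransferase gene Crebbp had 101, 108, 112 and 103 CPM in KO libraries 1 to 4, against 87.4, 79.3, 88.5 and 88.8 CPM in WT, without overlap (log2 change 0.30, edgeR adjusted p = 0.00526), as the single call among 21 other acetyltransferase and deacetylase genes. Kmt2c, a methyltransferase gene for enhancer histones, was the single call of 26 (0.21, edgeR adjusted p = 0.0230), and Arid1b, of the BAF remodeller, that of 32 synapse and autism-associated genes (0.26, edgeR adjusted p = 0.0163). They lost their calls without any of 4 and of 3 single libraries (edgeR adjusted p up to 0.224 and 0.0685). Of the 8 KAT6 complex promoters, the paralog Kat6a among them (log2 change -0.02), 0 were called by edgeR, DESeq2 or limma, and 1 had an unadjusted edgeR p under 0.05. The 18 SOX, 16 glial, 22 FGF and 39 HOX genes likewise had 0 calls by edgeR, DESeq2 and limma, with 5, 2, 6 and 5 at an unadjusted edgeR p under 0.05, against 16.8% of all promoters. The remaining lists had at most a pair of calls: Wnt5a of 32 WNT genes (0.29, lost when any of 5 libraries was left out), Gusb of 24 housekeeping genes (-0.38, lost without any of 3), Pcdha11 of 58 clustered protocadherins (-0.97, lost without any of 3), and Col9a2 (0.47, lost without any of 4) and Col11a1 (-0.30) of 53 collagen and laminin genes. Their edgeR adjusted p reached 0.145, 0.0832, 0.150 and 0.0908 in those fits for Wnt5a, Gusb, Pcdha11 and Col9a2, and reads of Pcdha11 can be shared with its paralogs. Among list members that kept their call with each single library left out, the factors of gene ends ended it at Id3, Smad6, Syt1, Kif1a, Six3, Kcnh5, Kcnk12, Ccne2, Crebbp and Col11a1. Thinning ended it at Bmp7, Smad6, Six3, Plxna4, Ccne2, Crebbp and Zic1.

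Promoters of other cell types were less open than those of progenitor genes and gave 6 calls, where 3.26% of all promoters were called. The median level percentile was 18.9 for 14 microglia and leukocyte markers, 33.2 for 12 endothelial, 21.8 for 12 erythroid, 50.9 for 14 mesenchymal and meningeal and 20.5 for 13 pluripotency and germline markers, against 85.2 for the progenitor list. Summed over its list, the endothelial level was 213 to 235 CPM in KO and 211 to 237 CPM in WT. Microglia and leukocyte markers summed to 125 to 149 CPM in KO and 134 to 150 CPM in WT, and mesenchymal markers to 595 to 665 CPM in KO and 603 to 649 CPM in WT, and the ranges overlapped in each. Erythroid markers summed to 148 to 177 CPM in KO and 132 to 176 CPM in WT, and pluripotency markers to 259 to 290 CPM in KO and 262 to 284 CPM in WT. The mesenchymal homeobox gene Prrx1 had 55.3, 48.2, 42.3 and 46.0 CPM in KO libraries 1 to 4, against 72.3, 72.2, 64.7 and 66.9 CPM in WT, without overlap (log2 change -0.51, edgeR adjusted p = 1.3e-05). Zic1 rose (0.33), as did Tbx18 (0.28), Cd68 (0.55) and Erg (0.46), and Cdh5 fell (-0.60). Of these, Tbx18 lost its call when any of 5 libraries was left out, Cd68 of 4, Erg of 2 and Cdh5 of 7 (edgeR adjusted p up to 0.0959, 0.143, 0.0703 and 0.199). Erythroid and pluripotency markers had 0 calls by edgeR, DESeq2 and limma, with 2 each at an unadjusted edgeR p under 0.05, against 16.8% of all promoters.

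Enhancer regions changed at a far larger share than promoters. Of 16601 tested, 3552 passed (21.4%), 2039 higher (12.3%) and 1513 lower (9.11%). The median absolute log2 change of the calls was 0.47, and KO and WT values did not overlap at 21.6%. Changes of at least 2-fold numbered 89 higher and 77 lower. The excess of rises changed with scaling and with the filter. Scaling by gene ends gave 2202 higher regions and 838 lower, and DESeq2 gave 1605 and 1119. Abundance offsets reversed the balance, with 1676 higher and 1764 lower. Library totals gave 1834 and 1622, and the filter on mean count gave 1635 and 1519. The calls were spread over the genome: in 346 bins of 5 Mb with at least 20 tested regions, the share called had a median of 21.4% and a range of 3.12% to 42.9%, and 316 bins held calls in both directions. By chromosome it lay between 17.9% on chromosome 19 and 26.1% on chromosome 13. Longer and more open regions, which hold more counts, were called more often, with 3.25% called in the shortest quartile and 34.8% in the longest.

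The region at 31123589 on chromosome 9 (mm9, 1716 bp) had the highest gain, with 50.3, 46.4, 53.1 and 51.0 CPM in KO libraries 1 to 4, against 9.35, 14.2, 10.2 and 16.2 CPM in WT (log2 change 1.98, SE 0.17, edgeR adjusted p = 2.5e-22). The lowest KO value was well above the highest WT value. The region at 16731579 on chromosome 11 (2185 bp) had 187, 199, 182 and 181 CPM in KO, against 62.8, 49.3, 55.5 and 53.5 CPM in WT (log2 change 1.76, SE 0.09, edgeR adjusted p = 5.1e-44). That at 80691809 on chromosome 2 (2229 bp) had 137, 141, 141 and 133 CPM in KO, against 41.4, 42.6, 47.7 and 48.7 CPM in WT (log2 change 1.61, SE 0.10, edgeR adjusted p = 3.8e-36). Among the other leading rises, chromosome 11 had one at 100760058 (1.72) and chromosome 18 one at 57565138 (1.72). Further ones were at 26162737 (1.63) and 107902846 (1.52) on chromosome 8, 62867959 (1.59) and 11109105 (1.54) on chromosome 15, and 128733198 on chromosome 7 (1.47).

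Apart from the chromosome 14 region empty in KO, the deepest fall was at 123299911 on chromosome 2 (mm9, 1768 bp). It had 22.5, 20.1, 15.5 and 21.2 CPM in KO libraries 1 to 4, against 84.2, 76.3, 79.0 and 83.6 CPM in WT (log2 change -2.003, SE 0.13, edgeR adjusted p = 7.3e-33). A second leading region on that chromosome, at 123176046 (2093 bp), had 30.5, 27.4, 32.3 and 29.8 CPM in KO, against 60.1, 90.5, 86.1 and 92.0 CPM in WT (log2 change -1.45, SE 0.12, edgeR adjusted p = 8.0e-23). WT library 1 was the lowest of its group there and still above all KO libraries. The region at 62968123 on chromosome 13 (3427 bp) had 51.7, 50.3, 51.1 and 45.5 CPM in KO, against 170, 161, 182 and 145 CPM in WT (log2 change -1.72, SE 0.09, edgeR adjusted p = 1.4e-42). The region at 101141320 on chromosome 12 fell as well (-1.83), as did those at 43753472 on chromosome 9 (-1.64) and at 25449391 on chromosome 16 (-1.46). The last ones named by the rule were 33271675 of chromosome 1 (-1.44), 83684044 of chromosome 2 (-1.39) and 136600091 of chromosome 4 (-1.38). All 20 leading regions, the chromosome 14 region empty in KO included, were called under each alternative run.

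**Figure D5:**
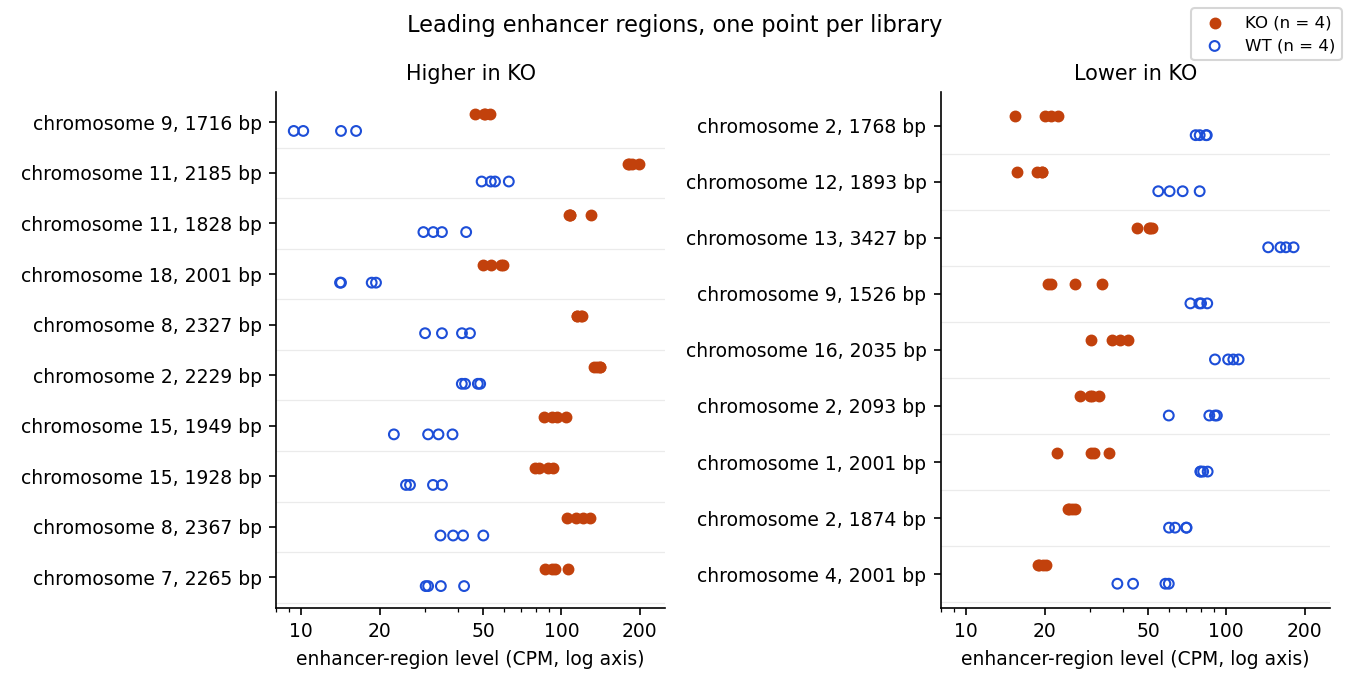
Enhancer-region level in CPM on a log axis for the 10 highest-ranked rises (left) and the 9 highest-ranked falls with counts in KO (right), with 1 filled point per KO library drawn above 1 open point per WT library. KO and WT points do not overlap in any row, which the rule for naming the regions required, and the top rows have the highest log2 change among the rises (on chromosome 9) and the lowest among the falls drawn (on chromosome 2).

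The wild-type strains also differed at many of these sites, and that contrast uses the same WT C57BL/6 libraries as the KO contrast, so the values are set side by side only. At the chromosome 9 region the log2 change was 1.98 in KO against WT and 2.46 in WT FVBxBALB/c against WT C57BL/6. At the chromosome 11 region of 2185 bp these were 1.76 and 0.97, and at 80691809 on chromosome 2 they were 1.61 and 2.16. The fall at 123299911 was -2.003 in KO and -0.92 between strains, and that at 62968123 was -1.72 and -0.62. The sign was the same in both contrasts at every leading enhancer region except the chromosome 14 region empty in KO (0.29 between strains). Among promoters, Sucnr1 had -1.08 in KO and -1.60 between strains, Kcna5 -0.97 and -1.22, and Gabra5 -0.86 and -1.04. The strain value was close to 0 at F2rl2 (0.01), Kcna6 (0.08) and BC107364 (-0.12), and of the other sign at Tenm4 (-0.48), Bbox1 (0.42) and Akr1e1 (1.87).

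Windows at gene ends gave 117 calls of 14941 tested (0.783%), 83 higher (0.556%) and 34 lower (0.228%), with 4.64% of windows not overlapping between groups. The median absolute log2 change of the calls was 0.78. Without KO library 1 there were 57 higher and 14 lower, and without WT library 2 there were 88 and 24. DESeq2 gave 93 higher and 20 lower, abundance offsets 55 and 49, a minimum mean count of 20 gave 85 and 64, thinning 44 and 35, and inclusion of chromosome X 102 and 129. The end of Fndc5, the gene of the irisin precursor, had 741, 738, 744 and 796 CPM in KO libraries 1 to 4, against 232, 416, 340 and 314 CPM in WT (log2 change 1.23, SE 0.12, edgeR adjusted p = 1.7e-19). All KO libraries lay above all WT libraries. She (1.42), Inka2 (1.16), the sialyltransferase gene St3gal4 (1.09) and the neighbouring genes Cnp (1.22) and Dnajc7 (1.10), whose end windows hold nearly the same counts, also rose. The end of Ankrd55 had 32.5, 44.2, 12.1 and 42.1 CPM in KO, against 110, 118, 124 and 136 CPM in WT (log2 change -1.85, SE 0.25, edgeR adjusted p = 8.2e-10). The protocadherin gene Pcdh20 (-1.35), the endosomal GTPase gene Rab22a (-1.12), the proton pump gene Atp6v1g3 (-0.89), Ghrhr (-0.86) and Olfr541 (-0.97) fell as well. Ghrhr lost its call without KO library 1 (edgeR adjusted p = 0.124), and Olfr541, whose reads paralogs can share, without KO library 1 or WT library 3 (edgeR adjusted p up to 0.223).

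At 9 genes both the promoter and the gene end were called, and both windows moved the same way at each. The tested gene ends included those of 511 of the called promoters. Lower at both were Id2, Six3, Ankrd55, Rab22a and Fv1. At Six3 the gene end fell to 145 ± 24.5 CPM in KO, against 229 ± 33.6 CPM in WT (log2 change -0.67, edgeR adjusted p = 0.00940), a call lost when any of 4 libraries was left out (up to 0.163). Rab22a fell by 0.22 at its promoter and by 1.12 at its end, and the promoter call was lost when any of 3 libraries was left out (edgeR adjusted p up to 0.0940). The promoter of Fv1, in a window that differs by 1.18% in counts from that of its neighbour Miip, fell by 0.21 and lost its call without any of 5 (edgeR adjusted p up to 0.216). Among the 25 neighbouring promoters from Zfp981 to Fbxo2, with Fv1 in the middle, 0 were called higher and 5 lower. No other run of 25 promoters had as many lower calls, and the cause was not tested. The Ankrd55 promoter (-0.58) lost its call when any of 5 libraries was left out (edgeR adjusted p up to 0.105). Higher at both were the neighbours Arhgef2 and Rxfp4 on chromosome 3, Ghrh, the gene of growth hormone releasing hormone, and Phlda1. Arhgef2, an exchange factor that links microtubules to RhoA, averaged 118. ± 4.35 CPM in KO and 81.2 ± 4.00 CPM in WT at its promoter (log2 change 0.54, edgeR adjusted p = 2.5e-09). At its end it averaged 123 ± 23.7 CPM in KO and 63.1 ± 12.47 CPM in WT (log2 change 0.94, edgeR adjusted p = 0.00583). Both calls at Arhgef2 held with each library left out. The gene ends of Ghrh, Phlda1 and Rxfp4 lost theirs when any of 6, 3 and 2 libraries was left out, and the Rxfp4 promoter when any of 3 was (edgeR adjusted p up to 0.276, 0.262, 0.0598 and 0.186).

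The overall balance between classes of region was compared within each library, where no spike-in is needed. The log2 ratio of promoter to gene-end counts was 3.24 ± 0.04 in KO and 3.17 ± 0.09 in WT (SD, n = 4), a difference of 0.07 (SE 0.05) that did not pass the test (two-sided exact permutation p = 0.200). That of enhancer-region to gene-end counts was 2.51 ± 0.01 in KO and 2.45 ± 0.06 in WT, a difference of 0.06 (SE 0.03, two-sided exact permutation p = 0.114). With 4 against 4 libraries the smallest p this test can give is 0.0286, which the enhancer ratio reached without WT library 2 (difference 0.08).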

How the data were processed

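Counts of ATAC-seq reads per promoter, enhancer region and gene end were deposited by the authors as whole numbers, made with featureCounts and a mouse mm39 build per the submitters' processing notes. Enhancer regions carry mm9 coordinates in their names, and the sources used here do not give the aligner, the read filters or any use of the Drosophila spike-in. Each table was normalised on its own by TMM after filterByExpr. The 16 libraries entered 1 edgeR 4.0.16 quasi-likelihood fit per class (R 4.3.3) with a coefficient per group, and KO was set against WT with Benjamini-Hochberg adjustment over autosomal regions and a threshold of 0.05. DESeq2 1.42.0, limma 3.58.1 voom, other scalings and filters, thinning and leaving out each library were alternatives. In simulated data, changes were set only at regions expected to hold at least 50 counts for promoters and 20 for gene ends. Among these the promoter fit recovered 46% of 1.25-fold and 100% of 1.5-fold changes, and the gene-end fit 88% of 2-fold changes. The rates do not cover regions with fewer counts, such as the median tested gene end with 9 to 14. Named promoters are the 15 highest and 15 lowest log2 changes called, with a mean of at least 50 counts and no overlap between groups. Enhancer regions are the 10 and 10 by the same rule, and gene ends the 6 and 6 with a mean of at least 20 counts. Called list members, Kat6b and its neighbouring promoters, the enhancer regions beside the one empty in KO and genes called at both windows are named too. The members and lists were chosen with earlier results of these data known. Symbols came from RefSeq for 20091 of 20113 genes. The edgeR SEs, intervals and p-values come from the fit, whose spread is estimated over all 16 libraries and shared between regions. The weight of this shared spread, the prior degrees of freedom, had a median of 306 for promoters and 209 for enhancer regions. For gene ends the median was infinite. The spread between a region's own libraries therefore entered little or not at all. The 12 replicate pairs of each class differed by more than counting noise (lowest ratio of chi-square to its degrees of freedom 1.035). The values of 1 gene of the progenitor list are not reported here.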

Additional observations from a re-analysis of the deposited data

Results flagged for a closer look

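In 9 of 224 groups of 4 values, 1 library lay far from the other 3 by Dixon's criterion, which chance meets in about 1 of 20 groups. At promoters, F2rl2 had 19.0 CPM in WT library 3 and 12.03 to 12.3 CPM in the others. B3galt4 had 50.9 CPM in KO library 2 and 40.7 to 41.6 CPM in the others, and Rab26 had 27.6 CPM in WT library 2 and 22.4 to 23.0 CPM in the others. Crebbp had 79.3 CPM in WT library 2 and 87.4 to 88.8 CPM in the others. Ephb2 had 45.1 CPM in KO library 2 and 52.0 to 53.1 CPM in the others, and Col11a1 had 127 CPM in KO library 4 and 111 to 113 CPM in the others. The enhancer region at 100760058 on chromosome 11 had 130 CPM in KO library 1 and 107 to 108 CPM in the others. At gene ends, Fndc5 had 796 CPM in KO library 4 and 738 to 744 CPM in the others, and Inka2 had 109 CPM in WT library 4 and 199 to 211 CPM in the others. Of these, the Ephb2 call was lost when any of the 8 libraries was left out, and the other calls were kept in each such fit.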

How the results depend on the processing

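The number of promoters called was 625. It fell to 297 with DESeq2, 204 with the scaling factors of gene ends and 175 after thinning to 1 depth. When 1 library was left out it was 393 to 556, lowest without KO library 1. It rose to 876 with the 8 C57BL/6 libraries fitted alone and to 798 with chromosome X included. Gene ends gave 117 calls, 231 with chromosome X included and 71 to 112 when 1 library was left out, again lowest without KO library 1. Enhancer regions gave 3552 calls and stayed within 1.5 times that number in all alternatives (2383 to 3748). The log2 difference in the enhancer to gene-end ratio lay between 0.0332 without WT library 4 and 0.0839 without WT library 2, where alone it passed (exact permutation p = 0.0286). The cause of these changes was not tested. Over 136 named regions and genes, 2272 of 2572 values kept their side of the threshold, and 300 lost the call. Of 2344 values of the 124 called ones 0 changed direction, and 5 of the 12 genes that were not called changed sign in 26 values. Among the 50 list members called at promoters, 8 kept the call in all alternatives and 42 lost it in some. Libraries with the same replicate number did not deviate together (correlations of -0.12 to 0.04). Whether the numbers pair libraries cannot be told from this, as no litter or preparation date is given. With the replicate block there were 594 promoter, 3526 enhancer-region and 120 gene-end calls. The factors of gene ends moved the median of all promoters to 0.07 on the log2 scale. Low depth limits gene ends most.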
